A study of Mus musculus with 161 samples.

Results

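CTCF whose termini had been exchanged was compared with full-length CTCF by chromosome-conformation capture carbon copy (5C), which counts ligation products between restriction fragments across a chosen region. The comparison holds 16 of the 91 5C libraries of the series, chosen by the cell line and treatment in the labels and by nothing measured, namely 2 libraries of the line with swapped N and C termini and 14 of the full-length line. All came from mouse embryonic stem cells in which endogenous CTCF was fused to an auxin-inducible degron (AID) and eGFP and was degraded with 500 µM auxin for 4 days. During the same 4 days, doxycycline (dox, 1 µg/ml) induced a FLAG- and mRuby2-tagged CTCF cDNA from the Tigre locus, either full-length (line EN133.10) or with the N terminus moved behind the zinc fingers and the C terminus before them (line EN187.3). Each line is 1 clone, so a difference between the lines cannot be told apart from a difference between clones. The amount of transgenic protein is not among the data used here, so less protein and altered protein cannot be told apart either. Beside these libraries stand 2 libraries of EN133.10 that received auxin but no doxycycline (no dox), 2 of a full-length clone with low expression (EN133.6), and 10 of 2 clones, EN186.4 and EN186.6, whose transgene lacks residues 1–265 (ΔN(1–265)), all with auxin for 4 days and, apart from no dox, with dox.

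CTCF binds DNA through an array of zinc fingers in the middle of the protein and reads a motif that has a direction. Cohesin extrudes chromatin loops and is halted at bound CTCF, and contacts are then enriched between sites whose motifs point toward each other. The stretches of chromatin that contact themselves more than their neighbours are called topologically associating domains, and the sites between them are boundaries, which insulate one side from the other. The captured region lies on chromosome X around the X-inactivation center, which holds Xist, the noncoding RNA that coats the inactive X chromosome, and its antisense partner Tsix, transcribed over it.

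The motifs under the peaks of full-length FLAG–CTCF are shown first, because the results below turn on the boundaries where they lie and on the direction in which they point. A core of 12 letters, CC, 3 bases of any kind, AG, 2 of any kind and GGC, was found on either strand in 51.3% of the 1128 peaks of 200 bases on chromosome X, against 2.22% of windows of the same length 5000 bases away. Of the 78 peaks in the captured region 39 held these letters, and a weight matrix built from the core instances on chromosome X gave a strand to 57 of the 78, 29 plus and 28 minus. Each sequence is 72 bases of mm9 in the direction of its motif, with the 12 bases at the position of the core in capitals. In the sequence before boundary 2 these bases end in GGT, so it does not hold the core letters. The first lies in an intron of Nhsl2 in the bin of boundary 1 (chrX:99170380-99170451, plus strand), the next pair between genes next to and in the bin of boundary 2, nearest to Rps4x and Cited1 (chrX:99410875-99410946 and chrX:99415142-99415213, plus), and after them 1 in an intron of 4930519F16Rik at boundary 3 (chrX:100455363-100455434, plus). The Tsix sequence lies in an intron before boundary 4 (chrX:100649555-100649626, minus), that near Rlim between genes before boundary 5 (chrX:101185934-101186005, minus), and the last in an intron of Cox7b at boundary 6 (chrX:103214265-103214336, plus).
Boundary 1, Nhsl2: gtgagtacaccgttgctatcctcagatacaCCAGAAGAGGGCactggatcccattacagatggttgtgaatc
Before boundary 2: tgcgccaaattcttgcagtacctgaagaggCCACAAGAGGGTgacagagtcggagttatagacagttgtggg
Boundary 2, near Cited1: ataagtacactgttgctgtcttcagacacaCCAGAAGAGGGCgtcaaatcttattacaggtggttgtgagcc
Boundary 3, 4930519F16Rik: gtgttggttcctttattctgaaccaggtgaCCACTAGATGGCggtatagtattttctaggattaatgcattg
Before boundary 4, Tsix: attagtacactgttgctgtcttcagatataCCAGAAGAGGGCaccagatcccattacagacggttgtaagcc
Before boundary 5, near Rlim: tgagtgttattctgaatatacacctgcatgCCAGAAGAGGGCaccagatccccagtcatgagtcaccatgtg
Boundary 6, Cox7b: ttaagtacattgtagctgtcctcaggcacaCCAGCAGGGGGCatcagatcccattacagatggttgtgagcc

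Some of these sequences also resembled each other outside the core. The sequences at boundary 2 near Cited1 and in Tsix were equal at 61 of 72 positions (84.7%), and those of Nhsl2 and Tsix at 60 (83.3%). The bin of boundary 3 held a single peak, and the bin of boundary 5 held none. The peaks nearest to boundary 5 lay in the bin 40 kb before it, where the motifs that were given a strand were minus.

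Total counts were 10146192 and 7231514 in the swap libraries and 5262254 to 23096139 in the 12 full-length libraries whose count matrix is complete, and the authors' iteratively corrected signal was used for all 30 libraries. The swap libraries differed from each other by more than counting noise (a chi-square of 7.45 per degree of freedom over binned counts, where full-length pairs gave 4.37 to 105). Nothing in the labels says that libraries of a line came from separate cultures, so the tests measure the spread between libraries of 1 clone. With 2 libraries against 14, the smallest two-sided p of an exact permutation test over libraries is 0.0167.

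The swap libraries were less insulated than the full-length libraries at 4 of the 6 boundaries with a mean near that of the libraries without dox. The insulation score of a 20-kb bin compares the contacts that join the 100 kb on its left to the 100 kb on its right with the average over the region, on a log2 scale with the sign turned, so that a high score means few contacts across. Averaged over the boundaries it was 0.40 and 0.39 in the swap libraries, against a lowest value of 0.54, a median of 0.60 and a highest of 0.71 in the full-length libraries. No swap library reached the range of the full-length libraries, and the mean difference was -0.22 (exact permutation p = 0.0167, Benjamini-Hochberg adjusted p = 0.0303 with the comparison with ΔN(1–265)). The no dox libraries had scores of 0.37 and 0.38, lower than the swap libraries by 0.01 in the mean, and 2 libraries against 2 allow no call by permutation. The low-expression clone, with 0.50 and 0.51, lay above both swap libraries. Against ΔN(1–265), whose 10 libraries ran from 0.46 to 0.52, the swap libraries were lower by 0.09 (exact permutation p = 0.0303, adjusted p = 0.0303). Within the run of consecutive library numbers that holds the swap libraries and 5 full-length libraries, the difference from full-length was -0.24 and took the smallest p that this size allows (exact permutation p = 0.0952).

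Boundaries 2, 3, 5 and 6 lost insulation, and boundaries 1 and 4 did not pass the test. At boundary 5, beside Rlim, a ubiquitin ligase gene that acts in X inactivation, the swap libraries had scores of 0.37 and 0.38 and the full-length libraries 0.63 to 0.79 with a median of 0.71. The ranges did not overlap, and the no dox libraries (0.33 and 0.38) enclosed the swap values. At boundary 3, inside 4930519F16Rik, the scores were 0.07 and 0.08 in the swap libraries and 0.30 to 0.44 (median 0.39) with full-length CTCF. The no dox libraries had 0.07 and 0.06 there, so that both groups sat near the average of the region. At boundary 2, near Cited1, a transcriptional co-regulator gene, swap gave 0.38 and 0.36 against 0.55 to 0.85 (median 0.66). Here the swap libraries were also below the no dox libraries, at 0.49 and 0.44. At boundary 6, between Cox7b and the copper transporter gene Atp7a, swap gave 0.57 and 0.46 against 0.60 to 0.91 (median 0.68). This was the smallest of the 4 gaps.

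The differences in mean score were -0.29, -0.31, -0.34 and -0.18 at boundaries 2, 3, 5 and 6, each with an exact permutation p of 0.0167 and an adjusted p of 0.025 over the 6 boundaries. Both swap libraries lay below all 14 full-length libraries at these 4 boundaries, and the same held for 18.1% of the 193 scored bins of the region. At boundary 1, inside Nhsl2, swap scores of -0.23 and -0.20 fell among full-length scores of -0.26 to -0.09 (exact permutation p = 0.45). At boundary 4, over Xist and Tsix, the most insulated of the 6, swap gave 1.23 and 1.24 within a full-length range of 1.15 to 1.68 (exact permutation p = 0.167), while within the run of library numbers the difference was -0.27 with no overlap (exact permutation p = 0.0952). In the next bin after each boundary the mean difference was -0.05 and did not pass the test (exact permutation p = 0.05, adjusted p = 0.1), whereas in the bin before each boundary it was -0.29 (adjusted p = 0.0303).

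**Figure D1:**
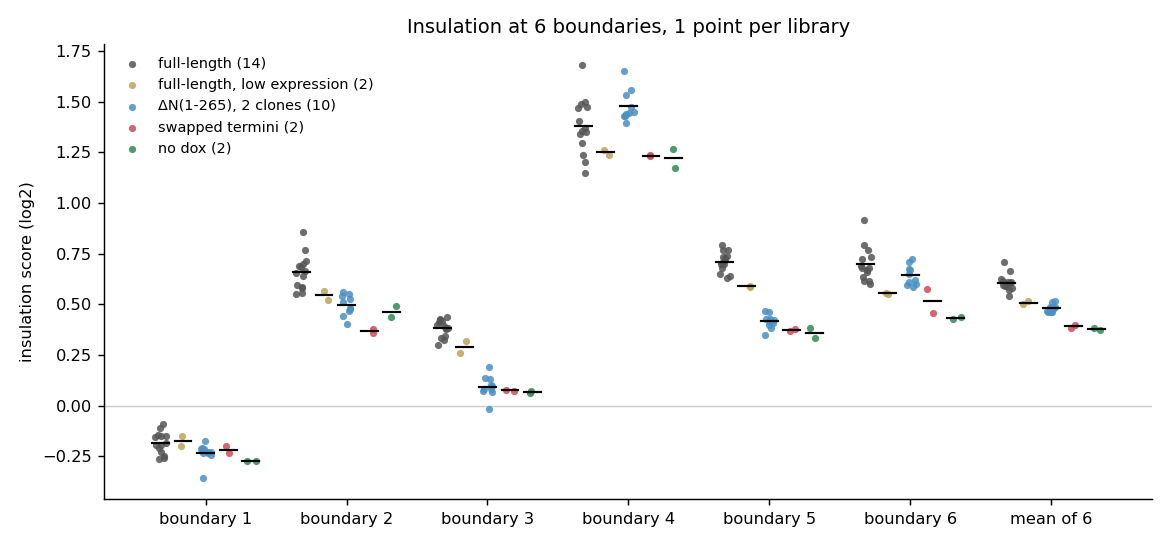
Insulation score (log2, y axis) at boundaries 1 to 6 and their mean (x axis), 1 point per library and a black bar at each group's mean, for full-length, full-length with low expression, ΔN(1–265), swapped termini and no dox. The swap points lie below all full-length points at boundaries 2, 3, 5 and 6 and within their range at boundaries 1 and 4.

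Contacts across each boundary, which enter the score, and those within the 100 kb on either side, which do not, were next compared. The score also holds the average over the region, which moves it by the same amount at every boundary. At boundary 6 the score differed by -0.18, but contacts across it by only 0.10 on the log2 scale, the rest being that average. None of the 18 values passed adjustment (lowest adjusted p = 0.075), with 4 at an unadjusted exact permutation p under 0.05. Contacts across boundary 3 had a log2 mean signal of 2.72 and 2.75 in the swap libraries and 2.30 to 2.64 with full-length CTCF, and those across boundary 5 had 2.42 and 2.45 against 1.92 to 2.33. In both, the swap libraries were above all full-length libraries, by 1.17-fold and 1.19-fold in the mean. In the 100 kb after boundary 3, which contain Cdx4, a homeobox gene, the swap libraries had 3.97 and 4.00 against 4.28 to 4.71, a ratio of 0.703 in the mean. There the no dox libraries had 4.15 and 4.31, above the swap libraries. After division by the mean at the same distance in each library, 7 of the 18 values passed (exact permutation p = 0.0167, adjusted p = 0.0429 each). Contacts across boundaries 2, 3, 5 and 6 were then higher in swap, by 0.28, 0.31, 0.37 and 0.16 on the log2 scale. Contacts in the 100 kb after boundaries 1 and 3 were lower, by -0.17 and -0.47, and those after boundary 5 were higher by 0.12.

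Over all bins, the score changed in both directions. It is relative to the average over the region in the same library, so falls in some bins entail rises in others. A split into both directions is therefore no separate result, and a higher score need not mean fewer contacts across a bin in the signal itself. A limma fit over 30 libraries called 96 of 193 scored bins, 49.7%, between swap and full-length, with 50 lower (25.9%) and 46 higher (23.8%) at a Benjamini-Hochberg adjusted p under 0.05. Lower scores gathered at the boundaries, which the study had chosen as dependent on CTCF. Of the 30 bins within 40 kb of a boundary 17 were called lower and 4 higher, while of the 163 bins farther away 33 were lower and 42 higher. The median difference was -0.16 in the former and 0.00156 in the latter. Of the 41 bins with a peak 16 were lower and 8 higher, and of the bins without a peak 34 were lower and 38 higher. The called bins formed 16 runs of adjacent lower bins and 10 of adjacent higher bins. The profile of the swap libraries was flatter, its SD over bins being 0.409 and 0.408 against 0.449 to 0.512 in the full-length libraries (exact permutation p = 0.0167, a measure added after the data were seen). The no dox libraries had an SD of 0.423 and 0.425. Without swap replicate 1 the fit called 60 bins, and without replicate 2 it called 49, the lone swap library then being assumed to vary like the other groups. On raw counts scaled to one sum it called 23.

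The 5 largest falls, counting each run of bins once, all lay within 40 kb of a boundary. The largest was in Tsix, in the bin 40 kb before boundary 4 that holds the Tsix motif shown above, where swap scored 1.02 and 1.097 and full-length 1.38 to 1.66 with a median of 1.46. The fall was -0.45 ± 0.06 (limma, SE, adjusted p = 3.03e-07). The adjacent bin, over Tsix and Xist, was called as well (1.28 and 1.35 against 1.55 to 1.98, -0.37 ± 0.07, adjusted p = 0.000114). The bin of boundary 4 itself was not called. The second was the bin before boundary 2, with the plus motif shown above (0.48 and 0.37 against 0.71 to 0.94, -0.40 ± 0.05, adjusted p = 1.89e-07). Both swap libraries were below all full-length libraries in these bins. Next came the bins of boundaries 5 and 3 themselves (-0.34 ± 0.03 and -0.31 ± 0.04, adjusted p of 3.84e-09 and 7.26e-08). The fifth was the bin before boundary 1 in Nhsl2 (0.06 and 0.10 against 0.07 to 0.53, -0.21 ± 0.07, adjusted p = 0.0167), where the groups overlapped.

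Of the 5 largest rises, 4 lay in bins where the full-length scores were negative, that is, where contacts across the bin were frequent. The largest was over Cdx4, 60 kb after boundary 3, where swap scored -0.35 and -0.36 and full-length -0.86 to -0.58 with a median of -0.70 (0.35 ± 0.05, adjusted p = 8.83e-07). The next was in Hdac8, a histone deacetylase gene, 140 kb after boundary 2 (-0.27 and -0.33 against -0.65 to -0.39, 0.21 ± 0.05, adjusted p = 0.00188). In both bins the swap libraries were above all full-length libraries. The others were 200 kb after boundary 5 (0.32 and 0.42 against 0.07 to 0.26, 0.20 ± 0.04), in Nhsl2 40 kb after boundary 1 (-0.43 and -0.45 against -0.70 to -0.59, 0.20 ± 0.03) and in Nhsl2 120 kb before it (-0.36 and -0.35 against -0.64 to -0.45, 0.20 ± 0.03). Their adjusted p were 0.000147, 1.2e-06 and 3.15e-05.

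**Figure D2:**
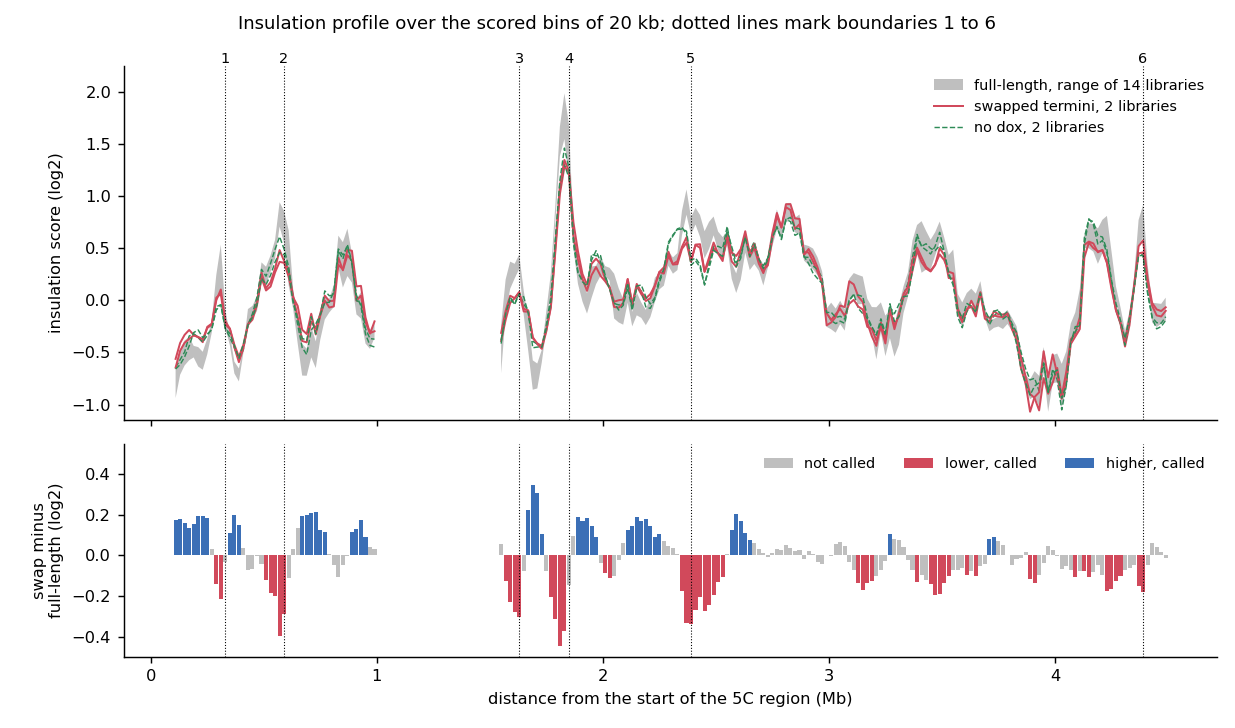
Top, insulation score (log2) along the captured region (x axis, Mb from its start), with the range of 14 full-length libraries in gray, 2 swap libraries in red and 2 no dox libraries dashed in green; bottom, swap minus full-length per bin, colored where called. Of the red bars, the 50 lower bins, 17 stand within 40 kb of a boundary (dotted lines), and of the blue bars, the 46 higher bins, 4 do; the gap holds bins without a score.

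Few bins were called between swap and no dox, and these lay around boundary 5 and before boundary 6. In the same limma fit, 6 of 193 bins (3.11%) were called between swap and no dox, 5 of them lower in swap (2.59%), and 7 (3.63%, all lower in swap) between swap and ΔN(1–265). With 2 libraries a group the first of these contrasts has less power than that with full-length, and a bin that was not called is not shown to be equal. With a window of 200 kb, 15 bins were called between swap and no dox and 23 between swap and ΔN(1–265). Before boundary 5, in and beside Rlim, the bins 80 and 60 kb from the boundary scored 0.34 and 0.35, and 0.35 and 0.37, in the swap libraries. The full-length libraries scored 0.25 to 0.41 and 0.29 to 0.45 there, enclosing the swap values, whereas no dox scored 0.62 and 0.63, and 0.68 and 0.68. Here swap was lower than no dox by -0.28 and -0.32 (limma, adjusted p = 2.59e-05 and 3.09e-06) and did not pass the test against full-length (adjusted p = 0.357 and 0.882). In the bin 40 kb before boundary 5 swap (0.49 and 0.51) was below both no dox (0.70 and 0.68) and full-length (0.62 to 0.86). In the bin 40 kb after that boundary swap (0.54 and 0.50) lay between no dox (0.32 and 0.34) and full-length (0.61 to 0.82), and was called against each (adjusted p = 0.0136 and 2.83e-05). The remaining 2 bins lay in and beside Atrx, a chromatin remodeler gene, 240 and 220 kb before boundary 6, with swap scores of 0.56 and 0.55, and 0.54 and 0.50, against 0.78 and 0.77, and 0.73 and 0.75, without dox.

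Contacts were then summed by domain. For bin pairs 40 kb to 1 Mb apart, the mean log2 of observed over expected, the expected being the mean at the same distance in the same library, was compared in 7 segments between boundaries, across each boundary alone and across 2 or more. Contacts within 2 segments fell, and contacts across boundaries 1, 2 and 5 alone, across 2 or more boundaries and after boundary 6 rose. Over all bin pairs of this distance the same mean was -0.22 and -0.21 in the swap libraries and -0.42 to -0.23 in the full-length libraries, higher by 0.07 in swap, which is the level to read the rises against. In all, 7 of 14 values passed (exact permutation p = 0.0167, adjusted p = 0.0333 each).

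Contacts across boundary 5 alone changed most. They were at -0.43 and -0.42 in the swap libraries and at -0.97 to -0.70 (median -0.76) in the full-length libraries, a difference of 0.36. The groups did not overlap, and no dox was at -0.36 and -0.39. Contacts across 2 or more boundaries rose by 0.26, from a full-length range of -0.999 to -0.64 to -0.52 in both swap libraries, which here were above the no dox libraries (-0.62 and -0.59). Across boundary 1 alone the rise was 0.18 (0.25 and 0.27 against -0.05 to 0.18), and across boundary 2 alone 0.10 (-0.36 and -0.34 against -0.63 to -0.37), close to the shift of all bin pairs. The segment after boundary 6 rose by 0.14, from -0.33 to -0.17 to swap values of -0.09 and -0.07, over 28 to 36 bin pairs.

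Falls occurred before boundary 1 and between boundaries 4 and 5. Before boundary 1 the swap libraries were at 0.24 and 0.26 and the full-length libraries at 0.33 to 0.48 (difference -0.17), with no dox at 0.30 and 0.32. Between boundaries 4 and 5, the domain on the side of the Xist promoter, swap was at -0.10 and -0.09 and full-length at -0.03 to 0.12 (difference -0.14). The segments between boundaries 1 and 2, 2 and 3, 3 and 4, and 5 and 6 did not pass the test (adjusted p from 0.0933 to 0.683), nor did contacts across boundaries 3, 4 and 6 alone (adjusted p from 0.0778 to 0.592). Across boundary 6 the swap libraries, at 0.02 and 0.03, were inside the full-length range of 0.01 to 0.24, while no dox was at -0.23 and -0.20. Across boundary 3 they were likewise inside it (-0.07 and -0.03 in -0.42 to 0.05), with no dox at 0.17 and 0.19.

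**Figure D3:**
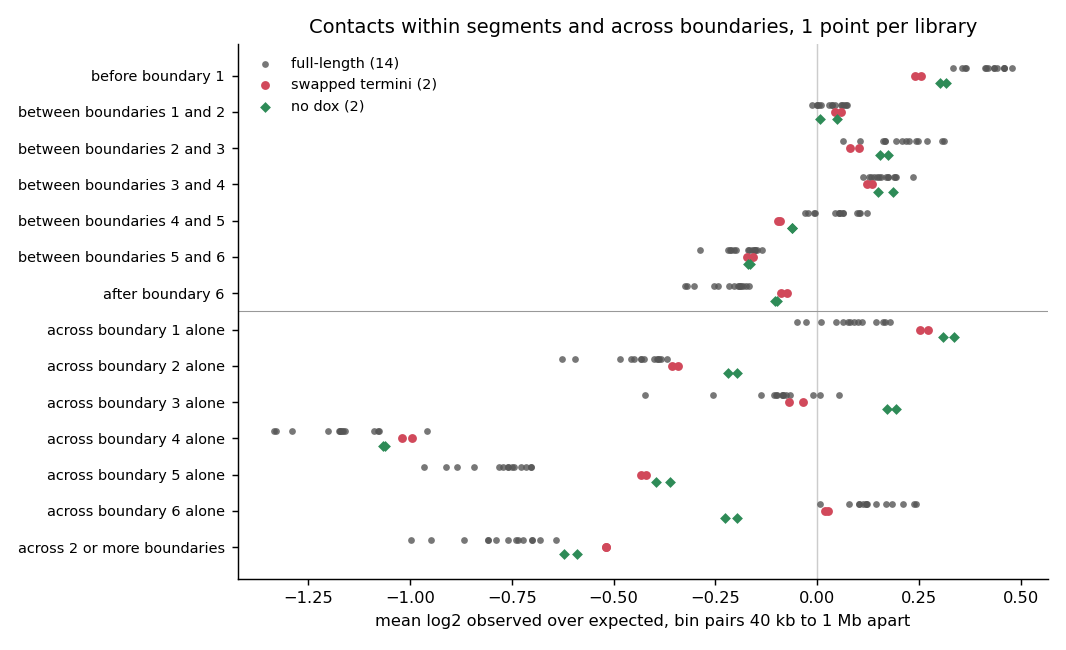
Mean log2 of observed over expected (x axis) for bin pairs 40 kb to 1 Mb apart within each segment (top) and across boundaries (bottom), 1 point per library, for full-length (gray), swapped termini (red) and no dox (green diamonds). Swap points lie right of all full-length points across boundaries 1, 2 and 5 and across 2 or more, and within the full-length range across boundaries 3, 4 and 6.

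Single bin pairs were tested next. Of 9539 pairs tested with limma, 57 (0.598%) were called, 44 lower (0.461%) and 13 higher (0.136%) in swap. All 57 had the same direction in observed over expected, as did 8974 of all 9539 pairs tested. Of the 13 higher pairs 11 spanned boundary 5 alone, a class that held 1241 of the pairs tested and no lower pair. Of the 44 lower pairs 6 lay between boundaries 3 and 4 (16.7% of 36 tested), 6 between boundaries 4 and 5 (2.17% of those tested), 9 between boundaries 5 and 6 (0.244% of 3685), and 11 had a boundary bin at 1 end (2.1% of 523). Across boundaries 1 and 2 alone and across 2 or more, where the mean level rose, no single pair was called higher. In simulated data the limma fit between swap and full-length recovered 13% of changes of 1.5-fold and 48.5% of changes of 2-fold. A pair that was not called is therefore not shown to be unchanged. Both swap libraries were below all full-length libraries in 2.43% of the pairs and above all in 2.26%. Between swap and no dox, and between swap and ΔN(1–265), limma called no pair, with 443 and 577 pairs at an unadjusted limma p under 0.05. The edgeR test on counts called no pair between swap and ΔN(1–265), with 655 at an unadjusted edgeR p under 0.05. Only 1 no dox library has a complete count matrix, so the edgeR contrast with no dox is left out. The split into lower and higher depended on the scaling. It was 49 to 42 on observed over expected, 31 to 28 with edgeR on counts and TMM factors, and 9 to 32 with edgeR and library size only. Without swap replicate 1 only 3 pairs were called, and without replicate 2 only 6.

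Of the 5 named falls, the best measured joined boundary 2, near Cited1, to Hdac8 260 kb downstream, where a plus motif faces a minus motif. Its corrected signal was 5.87 and 7.30 in the swap libraries and 11.6 to 19.6 (median 15.1) in the full-length libraries, with 8.17 and 9.34 without dox. Named falls were chosen with both swap libraries below the full-length range. Here the swap libraries were also below both no dox libraries and within the ΔN(1–265) range of 4.79 to 8.42 (-1.195 ± 0.18 on the log2 scale with a pseudocount of 0.1, adjusted p = 0.00226). The other falls had median full-length signals below 5. In Zdhhc15, a palmitoyltransferase gene, 1 bin lost contact with C77370 540 kb before it (0.89 and 0.33 against 1.15 to 4.69) and another with C77370 420 kb before it (0.78 and 2.02 against 2.80 to 8.76). The pair of Zdhhc15 with Magee1, 480 kb apart, was at 0 in both swap libraries and at 0.23 to 1.11 with full-length CTCF, and its call was lost on observed over expected (adjusted p = 0.0753). The remaining fall spanned 1240 kb between bins without genes (0.13 and 0 against 0.28 to 1.39).

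Of the named rises, most spanned boundary 5. A bin 100 kb before it and 1 in C77370 160 kb after it, 260 kb apart, had a signal of 6.36 and 4.53 in swap and 1.52 to 3.80 with full-length CTCF (0.98 ± 0.23, adjusted p = 0.0395), with 3.11 and 3.95 without dox. Another joined 2 bins without genes 380 kb apart (1.74 and 1.85 against 0.70 to 1.32). Named rises were chosen with both swap libraries above the full-length range. A further rise joined Chic1 to the Xist–Tsix boundary 120 kb away (4.11 and 3.58 against 1.71 to 2.75, 0.81 ± 0.18, adjusted p = 0.0278), where a minus motif is followed by a plus motif, and no dox gave 2.34 and 3.70.

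**Figure D4:**
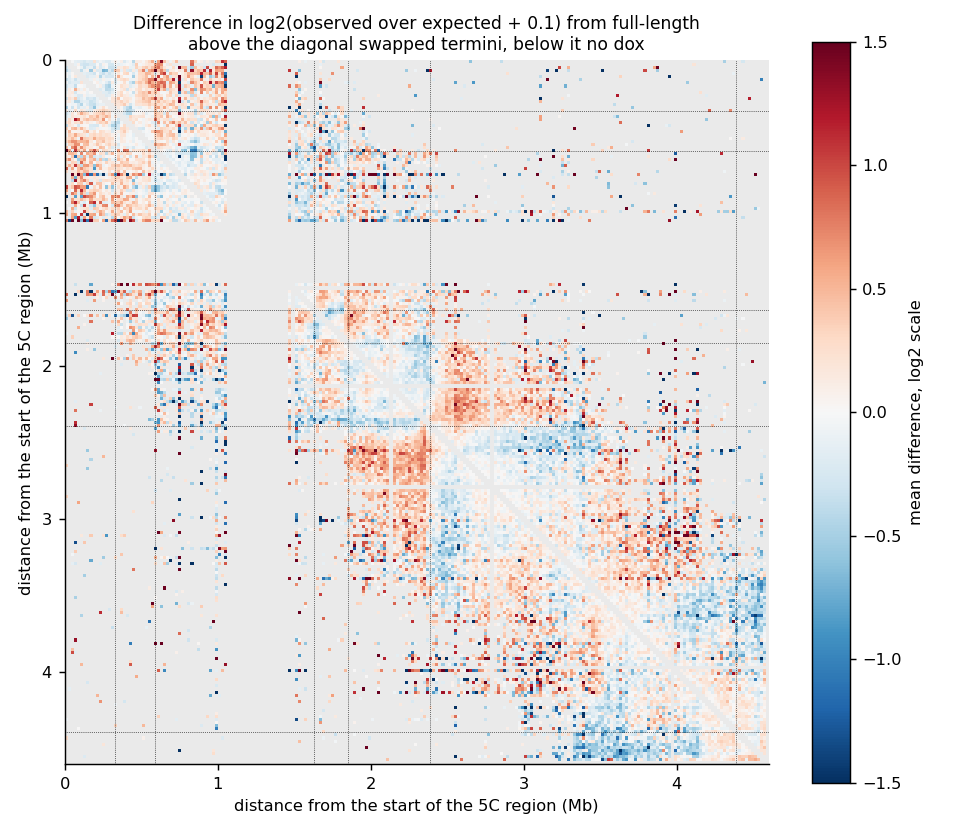
Difference from the full-length mean in log2(observed over expected + 0.1) for the 9539 bin pairs tested, against Mb from the start of the region on both axes, with swapped termini above the diagonal, no dox below it and dotted lines at the boundaries. Red, more contact than with full-length CTCF, prevails in the block across boundary 5, where the median swap difference was 0.26; gray was not tested.

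Contacts between pairs of boundaries, taken over 5 by 5 bins, did not pass adjustment for any of the 15 pairs (lowest adjusted p = 0.125, with 4 at an unadjusted exact permutation p under 0.05). Boundaries 4 and 5, which frame the Xist domain, had a log2 observed over expected of 0.02 and -0.03 in swap and 0.19 to 0.57 (median 0.47) with full-length CTCF. Both swap libraries were below all full-length libraries (difference -0.45, exact permutation p = 0.0167, adjusted p = 0.125), and no dox was at 0.02 and 0.12. Boundaries 3 and 4 had 0.24 and 0.25 in swap against -0.03 to 0.18 (exact permutation p = 0.0167), boundaries 1 and 2 had 0.18 and 0.13 against -0.20 to 0.15, and boundaries 2 and 5 had 0.67 and 0.83 against 0.24 to 0.69, both overlapping and with an exact permutation p of 0.0333 for each of the latter. For the other 11 pairs the exact permutation p ran from 0.15 to 0.933.

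No difference in the share of signal by distance passed the test. Of the signal between 40 kb and 4 Mb, 24.6% and 24.4% fell at 40–100 kb in swap and 23.4% to 26.6% with full-length CTCF. At 800–1600 kb the shares were 12.9% and 13.0% against 10.97% to 13.9%. Over the 6 classes the adjusted p was 0.533 and no class had an unadjusted exact permutation p under 0.05. Within the run of library numbers swap lay apart from the 5 full-length libraries in all 6 classes, lower up to 400 kb and higher beyond, by between -1.29 and 1.19 percentage points (exact permutation p = 0.0952 each, the smallest possible).

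Contacts between bins that both carry peaks of full-length FLAG–CTCF did not pass the test when the motif was ignored. At 100 to 1000 kb, pairs with a peak in both bins had a mean log2 observed over expected of 0.16 and 0.12 in swap against 0.01 to 0.13 (exact permutation p = 0.05, adjusted p = 0.05). Pairs with a peak in 1 bin rose from -0.37 to -0.17 to -0.16 and -0.14, and pairs with none from -0.52 to -0.31 to -0.30 and -0.28 (exact permutation p = 0.0167, adjusted p = 0.025 each). These differences, 0.07 and 0.08, are close to that of all bin pairs at these distances (0.08).

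When bins were sorted by the strand of their motifs, a comparison added after the data were seen, convergent pairs fell and divergent pairs rose. Of the 54 bins with a peak, 20 held plus motifs only and 18 minus motifs only, and pairs 100 to 1000 kb apart were called convergent where a plus bin precedes a minus bin. Convergent pairs (32 or 33 per library) had a mean log2 observed over expected of 0.22 and 0.27 in the swap libraries and of 0.41 to 0.81 (median 0.64) in the full-length libraries. The swap libraries were below all of them, by 0.39 in the mean (exact permutation p = 0.0167, adjusted p = 0.025), and below no dox, at 0.40 and 0.34, while the ΔN(1–265) libraries, at 0.07 to 0.30, enclosed them. Divergent pairs (41 to 47) had 0.22 and 0.08 in swap and -0.16 to 0.04 with full-length CTCF, higher by 0.21 (exact permutation p = 0.0167, adjusted p = 0.025), and 0.12 and 0.10 without dox. Tandem pairs had 0.04 and 0.02 in swap, inside the full-length range of -0.15 to 0.08 (exact permutation p = 0.317). All bin pairs at these distances were higher by 0.08 in swap, which is the level to read the divergent rise against. With medians over primer pairs neither call held, the differences being -0.46 for convergent (exact permutation p = 0.0167, adjusted p = 0.05) and 0.20 for divergent pairs (exact permutation p = 0.167, adjusted p = 0.167).

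The same measure was taken around each motif as the log2 ratio of mean observed over expected ahead of the motif to that behind it, 100 to 500 kb away, where ahead is toward higher coordinates for plus and lower for minus motifs. Over 17 bins with a value in every library the mean ratio was 0.26 and 0.23 in the swap libraries and 0.51 to 0.79 (median 0.62) in the full-length libraries. The swap libraries were below all full-length libraries by 0.38 in the mean (exact permutation p = 0.0167, adjusted p = 0.0167), while contacts still leaned ahead of the motif in both. Plus bins had 0.05 and 0.03 against 0.33 to 0.59, and minus bins 0.49 and 0.45 against 0.68 to 1.01, with the same p.

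Bin by bin, both swap libraries were below all full-length libraries in 10 of the 17 and above all in 1. The largest fall was in C77370 160 kb after boundary 5, a plus bin, with a ratio of 0.04 and 0.17 in swap, 0.61 to 1.37 (median 1.19) with full-length CTCF, and 0.16 and 0.07 without dox. The minus bin before boundary 5 that holds the motif shown above went from 0.98 to 1.69 with full-length CTCF to 0.46 and 0.34 in swap. The bin of boundary 2 near Cited1 kept a ratio of 1.19 and 1.09, against 1.59 to 2.08. The exception was the minus bin of Tsix and Xist next to boundary 4, at 0.65 in both swap libraries against -0.08 to 0.26, and at 0.44 and 0.59 without dox. In the mean over all 38 such bins, contacts behind the motif at 100 to 500 kb were at -0.12 and -0.11 in swap and at -0.32 with full-length CTCF, and both swap libraries were above all full-length libraries at 12 of 21 distances. Ahead of the motif the means were 0.08 and 0.11 against 0.18, with both swap libraries below all full-length libraries at 2 of 21 distances. Over all bin pairs 100 kb to 1 Mb apart the mean was higher by 0.08 in swap, which is the level to read both sides against. The counts of distances do not take this shift into account, so they do not show on which side the change is larger.

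**Figure D5:**
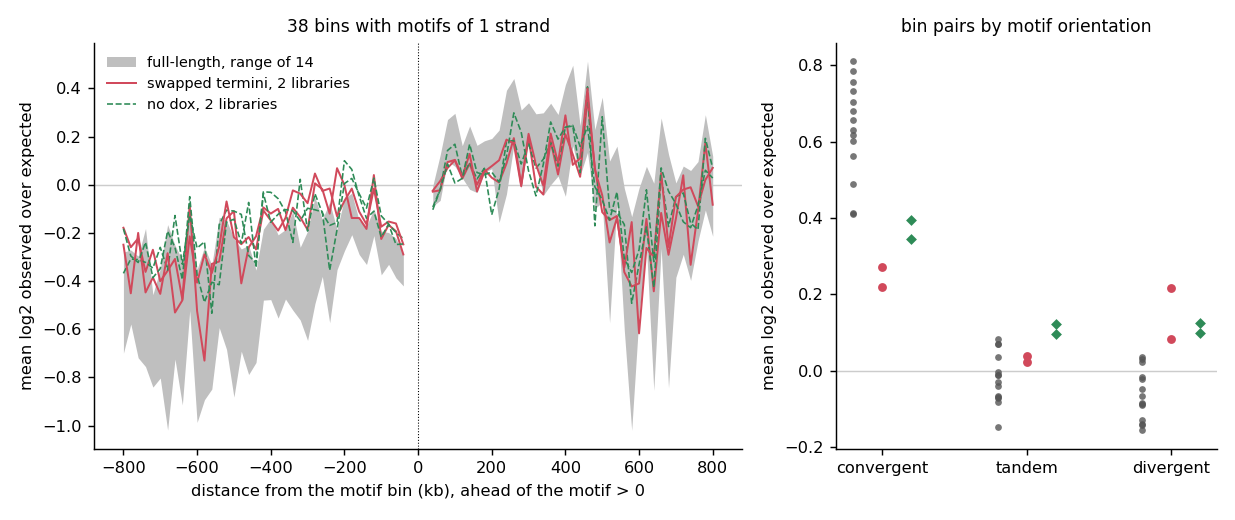
Left, mean log2 observed over expected (y axis) against distance from bins with motifs of 1 strand (x axis, kb, positive ahead of the motif), with the range of 14 full-length libraries in gray, swap in red and no dox dashed in green; right, the mean by orientation of the motif pair, 1 point per library. Behind the motif the red lines run above the gray range at 12 of the 21 distances from 100 to 500 kb. These values include the higher level of all bin pairs in swap. At convergent pairs both red points lie below all gray points.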

How the data were processed

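5C was performed by the authors with HindIII and primers for alternate fragments of a region of chromosome X. They mapped reads to primer pairs in mm9 coordinates (their processing notes name Bowtie2 and SAMtools) and deposited raw counts per primer pair, not normalized. They also deposited the signal that remained after iterative correction of the fragments, from which primers with poor coverage had been dropped. The corrected matrices of 2 full-length libraries hold forward against reverse primers only, unscaled. For these reasons the forward by reverse part of every matrix was scaled to a sum of 500000. Count matrices of 3 of the 30 libraries stop early (2 full-length, 1 no dox) and entered no step that starts from counts. Peaks of full-length FLAG–CTCF were deposited as coordinates. They come from EN133.10 after 2 days of auxin and dox, a shorter treatment than that of the 5C libraries. No ChIP-seq library of the swap line is in the series, so where the swapped CTCF binds was not measured.

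Corrected signal was averaged in 20-kb bins counted from the first fragment, after primers with only zeros had been set to missing. Diagonals nearest to 0 took the mean of the one beyond them, and a square needed 50% of its bin pairs measured. Zeros were left out of means of logarithms. Bin pairs tested were at least 40 kb apart, measured in every library, with a mean signal of at least 0.5. Of 230 bins 193 have a score, and the positions of the 6 boundaries are those of the study. It took them from the insulation profile of untreated cells and left out those shared with cells depleted of CTCF by auxin. Single values were tested over libraries by two-sided exact permutation of the difference in means. Profiles and maps were tested with limma 3.58.1 over all 30 libraries (maps as log2 of signal plus 0.1), and counts with edgeR 4.0.16 (quasi-likelihood), each with Benjamini-Hochberg adjustment and a call under 0.05. The fits were first tested on simulated data.

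Motifs were read from the mm9 sequence, and genes from its GENCODE annotation. A motif strand needed at least 10 bits and a margin of 5 bits over the other strand. All boundaries, segments, distance classes and boundary pairs are given. Named bins are the 5 largest falls and rises among called bins, 1 per run of adjacent bins. Named pairs are the same among called pairs with both swap libraries outside the full-length range and no 2 within 2 bins of each other. Some of these pairs are not reported here. The comparison, the boundaries and the measures were chosen with earlier results of these data known. Sorting by motif strand and the SD of the profile were added after the data were seen. Alternatives tried were other windows, medians, raw or newly corrected counts, thinned counts, neighboring bins, other distances, pseudocounts and filters, blocks by replicate number, the run of library numbers, and each library left out in turn.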

Additional observations from a re-analysis of the deposited data

Results flagged for a closer look

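Of 14 sets of values (the mean and 6 boundaries in each of the 2 ΔN(1–265) clones), 1 held a library apart from the rest by Dixon's criterion, which chance alone flags in about 1 of 20. At boundary 1, inside Nhsl2, replicate 6 of ΔN(1–265) clone 1 had an insulation score of -0.36, below its 5 companions. The swap and no dox groups are too small and the full-length group too large for this criterion.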

How the results depend on the processing

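The called differences at boundaries, domains, peak classes, motif orientations and around motifs had the same sign in all 104, 147, 44, 42 and 63 alternatives that were run for them. Leaving out a library, the run of library numbers and the shared replicate numbers could not turn these signs, because the groups did not overlap. A change of sign was possible only where the values were reprocessed. With 1 library left out, the difference in mean insulation ranged from -0.222 to -0.208 (-0.0973 to -0.0841 against ΔN(1–265)), the called bins from 49 to 97 and the called pairs from 3 to 65, and 1 swap library against 14 cannot reach 0.05 by permutation. The bin directly after each boundary gave a mean difference of -0.0496 (-0.0116 against ΔN(1–265)) and 0 of 6 boundaries called, with boundaries 1 and 4 higher in swap by 0.111 and 0.0945. Within the run of library numbers, too small for a call by permutation, mean insulation differed by -0.236 (-0.102 against ΔN(1–265)). Observed over expected called 7 of the 18 values across and beside boundaries, with 0.0218 across and 0.0122 before boundary 1, and 91 bin pairs. Raw counts called 23 bins, and medians over primer pairs called 0 peak classes and 0 orientations. The map had 10 calls in the 16 libraries alone.

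A replicate block over the numbers that groups share left 86 called bins and 12 called pairs, and the libraries numbered 1 and 2 gave -0.174 for mean insulation. Swap and full-length libraries of the same number correlated by -0.027 and 0.306 in their deviations from the group means, so the numbers were not taken to pair the libraries, and full-length numbers 3 and 4 each occur on 2 libraries.

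The libraries numbered 1 and 2 alone, 2 against 2, turned the sign of 13 values, none called with the settings used for the comparisons, among them contacts across boundaries 2 (-0.0292), 4 (-0.226) and 6 (-0.146) and after boundary 5 (-0.0492). Of these, across boundaries 2 and 6 and after boundary 5 passed on observed over expected. The changes of sign under other alternatives were in values not called with the settings used for the comparisons. With a window of 200 kb they were 0.0125 across boundary 1, -0.191 before boundary 4 and 0.0262 after boundary 6. With raw counts they were 0.0307 before boundary 1, -0.00678 between boundaries 5 and 6, 0.115 percentage points at 200–400 kb, and 0.0785, 0.0465 and 0.0266 for boundary pairs 1 and 4, 1 and 5, and 2 and 6. With medians they were -0.00927 between boundaries 5 and 6, 0.161, 0.380 and -0.0962 for pairs 1 and 4, 2 and 6, and 5 and 6, and -0.0553 for tandem motifs. With 3 by 3 bins pairs 1 and 4 and 1 and 5 gave 0.0241 and 0.233. Up to 500 kb, contacts across boundary 6 differed by 0.0511. Within the run, contacts across boundary 3 gave -0.0172, and pairs 1 and 4 and 2 and 6 gave 0.0590 and 0.0677. With 1 library left out, the contacts before boundary 4 ranged from -0.0257 to 0.0684, and pairs 1 and 4 from -0.0364 to 0.0276, 2 and 6 from -0.436 to 0.340, 3 and 6 from -0.0785 to 0.454, and 5 and 6 from -0.0726 to 0.219, while 4 and 6 reached 0.00608. The causes were not tested.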
